A study of Mus musculus with 12 samples.

Results

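Among 27881 sorted epithelial cells of the mouse small intestine, the 400 cells with the highest defensin and lysozyme score were examined. The score of a cell is the mean of log1p(10000 x value / cell total) over 8 products of Paneth cells: Lyz1, Defa17, Defa21, Defa22, Defa24, Mptx2, Ang4 and Mmp7. The cells were therefore chosen by measured values, and the levels of these 8 genes describe the choice and support nothing. The 400 cells are called defensin-high cells here, because several measurements below went against calling them all Paneth cells.

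The series holds 12 samples, of which the 8 diet samples gave the table used here. Each is labelled as sorted CD45-, EpCAM+ cells of adult mice of the reporter strain Lgr5DTR-GFP, and the diet of no sample is named in the labels. CD45 is a surface protein of blood-derived cells and EpCAM a surface protein of epithelium, so the sort takes epithelial cells of every kind. The intestine was divided along its length into 30 segments, cells were tagged by segment with MULTI-seq lipid-anchored barcodes, and transcripts were read from the 3′ end with 10x Chromium chemistry. The design text speaks of 2 small intestines, and the labels tie no sample to an animal. Cell barcodes end in 1 of 8 numbers that do not match the numbers in the sample titles. It counts as 1 pooled sample, the 8 barcode sets serve as a description of spread, and no test and no p-value is given.

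Paneth cells sit at the base of the small intestinal crypt, between the stem cells. They store alpha-defensins, lysozyme and other antimicrobial proteins in granules, release them into the crypt lumen, and give Wnt, EGF and Notch signals to the neighbouring stem cells. Alpha-defensins are small cationic peptides that damage microbial membranes. In the mouse they are encoded by a large cluster of near-identical genes on chromosome 8, and matrilysin (Mmp7) cuts their precursors into the active form.

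On the mouse build GRCm38 in the GENCODE annotation, the 4 alpha-defensin genes of the score lie on the plus strand at chr8:21025545-21026516 (Defa21), chr8:21162277-21163249 (Defa22), chr8:21655780-21656735 (Defa17) and chr8:21734494-21735471 (Defa24). The lysozyme gene Lyz1 lies at chr10:117287797-117292868. The likeness of the defensin genes bears on how their levels can be read. The longest annotated Defa21 and Defa22 transcripts were 99.3% identical, and 72.9% and 74.9% of their 50-base stretches also occurred in another alpha-defensin transcript. For Defa17 that share was 92.0%, and for Defa24 28.1%. No source used here says how the authors' counting divided reads between such copies, so levels of single alpha-defensin genes are uncertain and the family is also given as a sum.

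The control regions of Defa21 and Defa22 show the same likeness. RefSeq promoter windows (build GRCm38.p6, 250 bases before to 50 after the start) were found for 6 of the 8 genes, and those of Defa21 and Defa22 were identical at 300 of 300 bases. The 250 bases before the start are printed because the 2 genes had similar levels in each group of cells below. Capitals mark matches to CTTTG followed by any 2 of the letters A and T, on either strand, the letters of the site bound by the Wnt effectors of the TCF family. The plus-strand sequence reads 5′ to 3′:
Defa21 (chr8:21025295-21025544) and Defa22 (chr8:21162027-21162276): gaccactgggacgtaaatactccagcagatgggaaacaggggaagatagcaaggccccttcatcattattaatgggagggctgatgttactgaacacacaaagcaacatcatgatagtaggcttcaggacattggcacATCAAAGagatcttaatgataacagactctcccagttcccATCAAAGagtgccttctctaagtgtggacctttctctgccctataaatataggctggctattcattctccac
The sequence holds 2 such matches, and 16.9% of 32851 mouse promoter windows of 300 bases hold at least 1. Of the other genes of the score with a window, each of the 2 Mmp7 windows holds 1 match, and those of Lyz1, Mptx2 and Ang4 hold 0. A match is a description of letters and not a bound site.

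The 8 genes of the score made up a small part of most of the 400 cells. Their share of a cell's summed values was 0.818% in the lowest cell, 1.98% at the median, 4.86% at the 95th percentile and 37.8% in the highest. It exceeded 3% in 57 of the 400 cells and in 14 of the 27481 other cells, 5% in 19, 10% in 7 and 20% in 3, with no other cell above 5%. The 5 highest-ranked cells, looked at separately after their values were seen, had shares of 19.9, 37.8, 26.3, 27.2 and 12.6%, and they came from barcode sets 1, 1, 8, 8 and 8. The score itself ran from 4.08 to 2.10 among the 400, with a next cell outside also at 2.10, and its median was 2.22 against 0.88 over all cells. Of the 400 cells, 94 lay within 0.1 SD of the edge, and 216 cells did so on both sides together.

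No step separated the 400 from the cells ranked below them. Summed levels of the 8 genes, in parts of 1000000 of all summed values (ppm), were 124543 ppm in ranks 1 to 20 and 51340 ppm in ranks 1 to 100. They were 21120, 18316 and 17181 ppm in each 100 ranks after that. Outside the edge they were 15822 ppm in the next 400 cells, 13527 ppm in the 800 after those and 3443 ppm in the rest. The other 17 alpha-defensin genes measured followed the same course, with 61411 ppm in ranks 1 to 20, 7003 ppm in the last 100 ranks inside the edge and 6313 ppm in the next 400 cells.

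**Figure D1:**
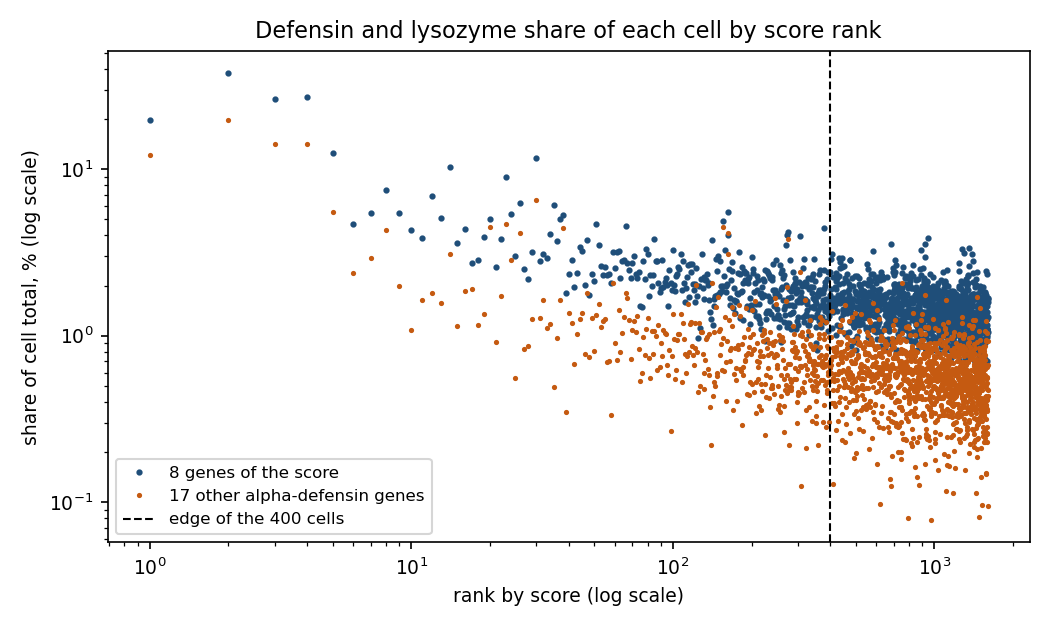
Share of each cell's summed values (%, log scale) taken by the 8 genes of the score and by the 17 other alpha-defensin genes, against rank by score (log scale) for ranks 1 to 1600; 1 point is 1 cell and the dashed line is the edge of the 400 cells. A few cells at the left reach 12.6 to 37.8%, and the cloud crosses the edge without a step.

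Defa24 was the most abundant gene of the score. It was at 17496 ppm in defensin-high cells and 2549 ppm in all other cells, and a value was present in 400 of 400 and in 92.7% of cells. Over the 6 barcode sets with at least 10 defensin-high cells its level was lowest in set 2 (12993 ppm), 19173 ppm at the median and highest in set 1 (38587 ppm), against 1114, 2823 and 3827 ppm in the other cells of these sets. The 2 ranges did not overlap. Lyz1, which encodes the lysozyme of Paneth granules and cleaves bacterial cell walls, was at 2060 ppm against 316 ppm. Its set levels ran from 1663 ppm in set 2 over a median of 2332 ppm to 3625 ppm in set 8, above 161 to 512 ppm in other cells. A Lyz1 value was present in 99.75% of defensin-high cells (exact binomial 95% interval 98.6 to 99.99) and in 63.0% of other cells (62.4 to 63.5). These intervals cover counting error only.

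Defa21 was at 3078 ppm against 389 ppm, Defa22 at 2864 against 371 ppm and Defa17 at 878 against 112 ppm. The remaining genes were scarcer. Ang4, a ribonuclease with antimicrobial activity, was at 409 against 45.1 ppm and had a value in 72.25% of defensin-high cells. Mmp7 was at 277 against 37.3 ppm with a value in 51.0%, and Mptx2, a mucosal pentraxin that binds bacteria, at 242 against 25 ppm with a value in 52.5%. For all 8 genes the 6 set levels in defensin-high cells lay above those in other cells, which the choice of cells fixes.

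**Figure D2:**
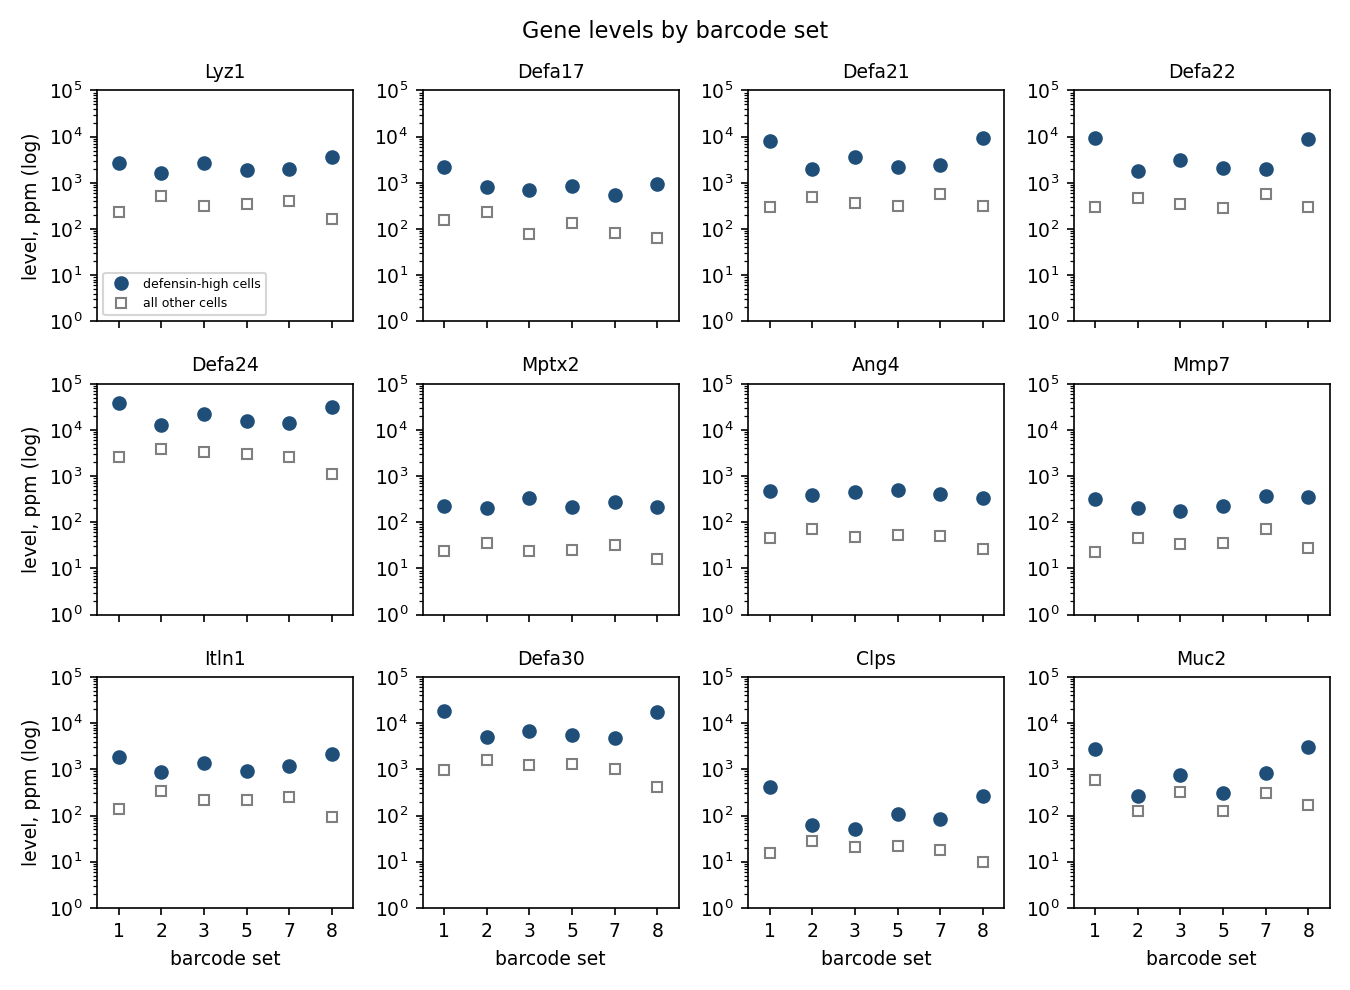
Level (ppm, log scale) of the 8 genes of the score and of Itln1, Defa30, Clps and Muc2 in defensin-high cells (filled circles) and all other cells (open squares) of the 6 barcode sets with at least 10 defensin-high cells; 1 point is the summed level of 1 set. The 2 ranges are apart for every gene shown except Muc2, and sets 1 and 8 are highest for Defa21, Defa22 and Defa30.

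The same 8 genes were present throughout the table, and their proportions were similar when the cells of a group were pooled. Enterocytes, the absorptive cells of the villus, do not make Paneth granules. In the 400 cells with the highest score over 18 enterocyte genes, the 8 genes summed to 1100 ppm, with a Defa24 value in 86.0% of cells and a Lyz1 value in 41.25%. Median cell totals were 7268 in these enterocyte-scored cells, 5541 in all other cells and 4348 in defensin-high cells. Defa24 took 64.1% of the summed 8 genes in defensin-high cells, 66.3% in all other cells, 60.4% in enterocyte-scored cells, 64.1% in stem-scored cells and 73.7% in goblet-scored cells, the last 2 chosen in the same way over 8 stem or 8 goblet genes. Lyz1 took 7.55, 8.22, 10.03, 8.43 and 7.06% in the same order. Defensin-high cells exceeded all other cells 6.52-fold for Lyz1 and 9.68-fold for Mptx2, with the other 6 genes in between. Within single sets the proportions varied more. The Defa24 to Defa21 ratio was lower in defensin-high than in other cells in 5 sets, at 4.79 and 8.60 in set 1, 6.47 and 7.58 in set 2, 6.11 and 9.19 in set 3, 7.11 and 9.58 in set 5, and 3.41 and 3.54 in set 8. It was higher in the other 3, at 13.9 and 10.5 in set 4, 13.3 and 3.72 in set 6, and 5.77 and 4.34 in set 7, of which sets 4 and 6 held 9 and 8 defensin-high cells. How much of these values is RNA taken up from outside the cell was not tested.

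**Figure D3:**
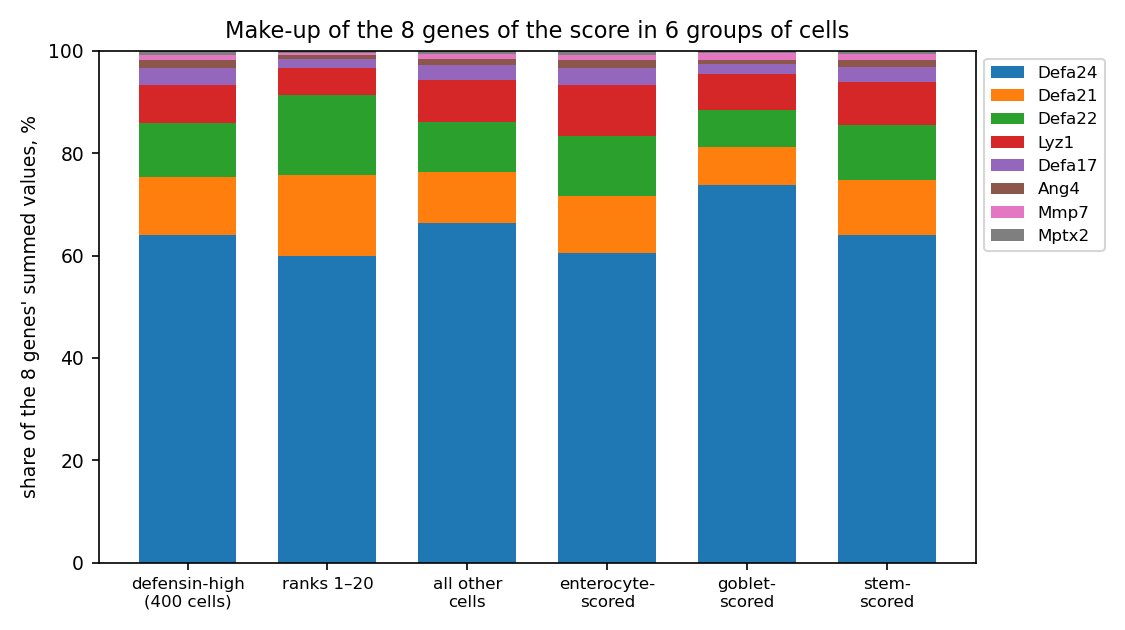
Share (%) of each of the 8 genes in their summed values, for defensin-high cells, their ranks 1 to 20, all other cells, and the enterocyte-, goblet- and stem-scored cells; each bar sums to 100%. Defa24 takes 59.8 to 73.7% in the 6 groups although the summed levels range from 1100 to 124543 ppm.

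Defensin-high cells were spread unevenly over the barcode sets. Set 2 held 200 of them, 4.36% of its cells (exact binomial 95% interval 3.79 to 5.00, counting error only). The other sets held 8 to 73, or 0.273 to 1.37% of their cells. Set 2 was also the set in which all other cells had the highest summed level of the 8 genes, 5708 ppm against 1640 to 4503 ppm in the 7 other sets. Its share of the 400 was 14.75% when each set was centred on its own median score, a choice made after the data were seen. The barcodes of 5 defensin-high cells occurred in a second set as well. In the whole table, 27881 cells carried 27802 distinct barcodes.

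Defensin-high cells had fewer detected genes, with a median of 1501 against 2235 in other cells, beside the lower totals given above. In 51.5% of them the value 2 was more frequent than the value 1, a pattern not expected of raw molecule counts, against 24.9% of other cells. The gene counts and gene lists were therefore also compared with 2000 other cells matched on barcode set and number of detected genes, 5 for each defensin-high cell, which had a median of 1614 detected genes. The pool for matching held the cells ranked just below the edge. The median log2 difference of the 8 genes of the score was 1.82 against matched cells and 2.66 against all other cells. Matched cells were thus also closer to the defensin-high cells in the genes of the score.

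A gene was counted as higher or lower where the mean of both groups was at least 10 ppm, the log2 difference at a pseudocount of 1 ppm was at least 1 in size, and the direction was the same in all 6 sets with at least 10 defensin-high cells. The other cells were weighted by the set shares of the defensin-high cells. Of 9128 genes outside the score, 40 (0.438%) were higher and 228 (2.50%) lower, and the median gene stood at -0.25. Against matched cells, 18 of 8670 genes (0.208%) were higher and 22 (0.254%) lower, and the median gene stood at -0.03. All 18 were among the 40, and 10 of the 22 among the 228.

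Other alpha-defensins led the higher genes. Of 37 listed, 17 were measured, 15 reached 10 ppm and 13 were higher, with a median log2 difference of 2.17 and set medians from 1.45 to 4.34. Of them, 11 were also higher than in matched cells, where the median was 1.38. Defa30 was the most abundant, at 7023 ppm against 1287 ppm in set-weighted other cells, a log2 difference of 2.45. Its set levels ran from 4783 over 6227 to 18729 ppm, against 414 over 1144 to 1581 ppm, with no overlap. AY761184 followed at 1617 against 265 ppm (2.60) and Gm14851 at 1483 against 254 ppm (2.54). A value of these genes was present in 45.8 and 46.1% of all other cells. Defa20 and Defa35 differed in direction between sets, and Defa27 and Defa28 were under 10 ppm. Since these genes share long stretches with those of the score, they are not independent of the choice of cells.

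Of 21 other measured products linked to Paneth cells, 17 reached 10 ppm, 5 were higher and 1 was lower, with a median of 0.69. The 5 were also the ones higher than in matched cells. Itln1, an intestinal lectin that binds microbial sugars, was at 1240 against 265 ppm (log2 2.22, and 1.38 against matched cells). Its set levels were 886 to 2182 ppm with a median of 1300, above 90.7 to 334 ppm in other cells. Clps, the colipase that anchors lipase to fat droplets, was at 120 against 22.4 ppm (2.37), and the lipase gene Pnliprp2 at 43.6 against 9.43 ppm (2.10). Spink4, a protease inhibitor of goblet cells, was at 2298 against 608 ppm (1.92), and the chemokine gene Ccl6, also on the goblet list, at 116 against 29.2 ppm (1.95).

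The Reg3 lectins, which bind bacteria and are made by enterocytes and goblet cells as well, were not higher. Reg3a was lower, at 13.8 against 58.7 ppm (-2.01), though its set ranges overlapped, and against matched cells its difference was -1.15 and it did not pass. Reg3b was at 1164 against 1613 ppm (-0.47) and Reg3g at 643 against 826 ppm (-0.36), short of the size asked. Within the 400 cells, Itln1 was the readout that went most with the other alpha-defensins among 6 compared, with Pearson's r of 0.43 over 400 cells centred on their sets and 0.35 without ranks 1 to 20. Cells share library, depth and the choice by score, so r is a description. The other 5 readouts were at most 0.14 in size. Far-out single cells remained without ranks 1 to 20. In ranks 21 to 400 the other alpha-defensins reached 6.56% of a cell total, against a median of 0.764%. Over the 400 cells Itln1 reached 14338 ppm in 1 cell, against a median of 828 ppm. How much of r such cells carry was not tested.

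Genes of the stem cell niche did not stand apart. Of 15 measured ligands and their helpers, 6 reached 10 ppm and none was higher or lower, with a median of -0.13 and one of -0.05 against matched cells, where none passed either. Wnt3, the Paneth Wnt ligand, was at 9.56 against 3.82 ppm and Egf at 2.66 against 1.98 ppm, both under the level asked. The Notch ligand Dll1 was at 13.8 against 13.4 ppm. Of 20 Wnt targets, Notch genes and secretory lineage factors, 13 reached 10 ppm and none passed, with a median of -0.06, and none of 14 passed against matched cells, with a median of 0.06. Sox9, required for Paneth cells, was at 94.0 against 97.9 ppm, the receptor genes Ephb3 and Fzd5 at 20.7 against 19.8 and 47.8 against 73.0 ppm, and Xbp1, a driver of secretory capacity, at 51.0 against 66.3 ppm. Gfi1, a secretory lineage factor, was listed at 0 in the 400 cells.

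The secretory machinery was near the level of other cells. Of 25 endoplasmic reticulum folding genes that reached 10 ppm, 1 was higher, Agr2, a disulfide isomerase of mucin folding (553 against 249 ppm, 1.15), and the median was -0.06. Hspa5, the main chaperone of the endoplasmic reticulum, was at 365 against 352 ppm. Of 45 genes of translocation and vesicle transport, 1 was higher (Sytl2, 1.28) and 1 lower (Spcs1, -1.15), with a median of -0.25, that of all genes. Against matched cells none of the folding or transport genes passed. Lists for autophagy and lysosome (21 genes), microbial sensing (11) and mitochondrially encoded genes (13) had no gene past the rule. In zinc handling (17) and glycolysis (13) 1 gene each was lower, Mt2 (-1.32) and Slc16a1 (-1.01), neither against matched cells.

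**Figure D4:**
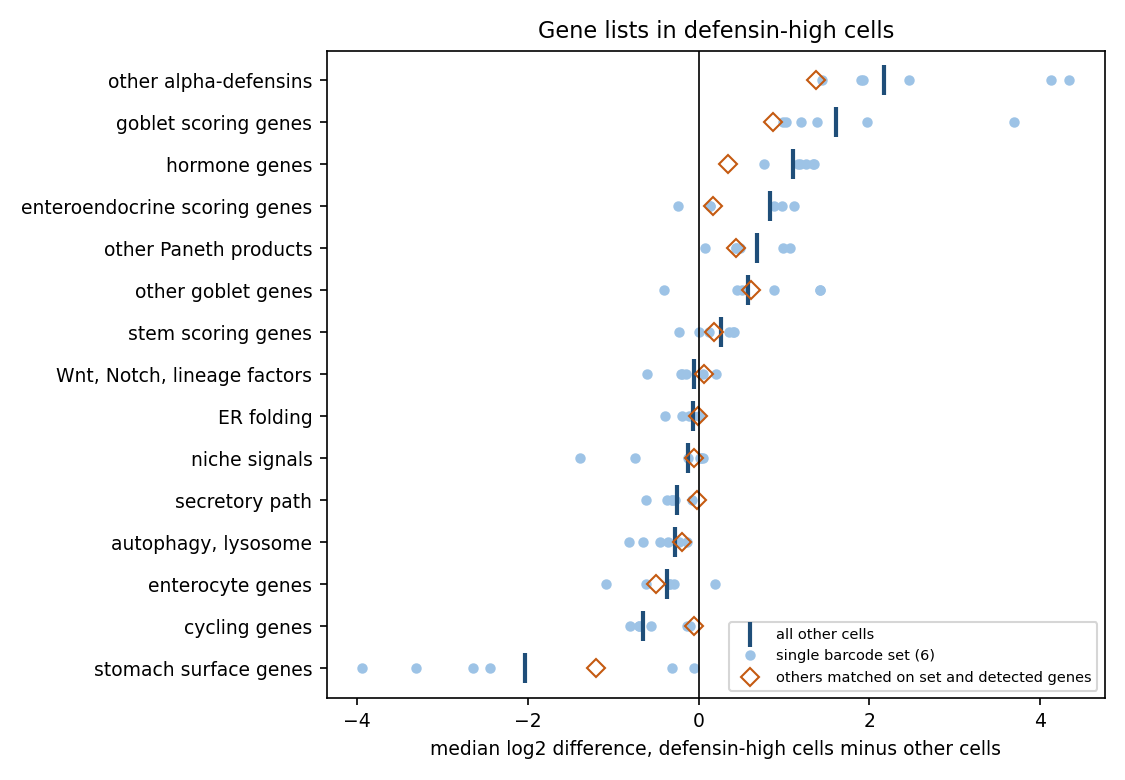
Median log2 difference of 15 gene lists between defensin-high cells and other cells; the bar compares with all other cells weighted by set, the circles are the 6 single sets and the diamond compares with others matched on set and detected genes. Other alpha-defensins stand at 2.17 and 1.38, hormone genes at 1.10 and 0.34, and folding and transport genes near 0.

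Mucus genes of goblet cells, the neighbouring secretory lineage, were also higher in defensin-high cells than in all other cells. Of 8 goblet scoring genes, 6 were higher, with a median of 1.61, and 2 of them (Muc2 and Ccl6) against matched cells, with a median of 0.87. Muc2, the gel-forming mucin, was at 787 against 227 ppm (1.79), but its set levels of 271 to 3025 ppm overlapped those of other cells (123 to 596 ppm). Zg16, a lectin of mucus, was at 2618 against 707 ppm (1.89), with overlapping set ranges. Few cells carried much of this: in ranks 1 to 20 Muc2 was at 5528 ppm and Zg16 at 17292 ppm, against 508 and 1755 ppm in ranks 21 to 400. The goblet scoring genes summed to 14603 ppm in ranks 1 to 100, then 5467, 5596 and 4592 ppm in each further 100 ranks. Their sum outside the edge was 4657 ppm in the next 400 cells, 4927 ppm in the 800 after those and 3549 ppm in the rest. Within the 400 cells, Pearson's r of the goblet scoring genes with the other alpha-defensins was 0.14, and 0.02 in ranks 21 to 400. Without the defensin-high cells that were also goblet-, enteroendocrine- or stem-scored, the goblet median was 0.998 and the alpha-defensin median was 2.10.

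The cells at ranks 1, 3 and 4 held goblet scoring genes at 25.8, 16.0 and 15.9% of their totals beside the 8 genes at 19.9, 26.3 and 27.2%. The cells at ranks 2 and 5 held goblet genes at 0.463 and 0.3003% and enterocyte genes at 3.55 and 7.42%. Whether the first kind are single cells or droplets with a pair of cells was not tested. Of the 400 cells, 12 were also goblet-scored, 3 of them in ranks 1 to 20, 7 enteroendocrine-scored, 4 stem-scored and 0 enterocyte-scored.

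**Figure D5:**
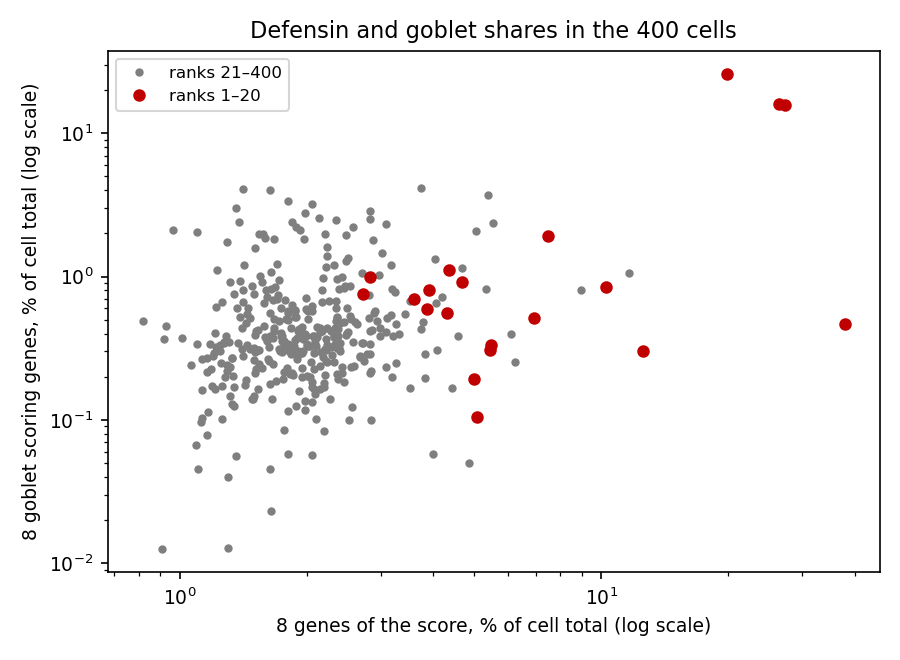
Share of the cell total (%, log scale) in 8 goblet scoring genes against that in the 8 genes of the score for the 400 defensin-high cells, with ranks 1 to 20 in red. The red points at 15.9 to 25.8% goblet share lie apart, and the other points stay below 5% on the vertical axis.

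Of the listed hormone genes of enteroendocrine cells, some were higher against all other cells and none against matched cells. Of 10 that reached 10 ppm, 5 were higher, with a median of 1.10: Sct (secretin, 1.41), Scg2 (a granin of hormone granules, 1.36), Sst (somatostatin, 1.33), Gip (the incretin of K cells, 1.19) and Tph1 (serotonin synthesis, 1.14). Against matched cells none of 10 was higher and the median was 0.34. Of the 8 enteroendocrine scoring genes, granins and processing enzymes among them, 5 reached 10 ppm and none was higher, with a median of 0.83, set medians from -0.25 in set 7 to 1.12 in set 5, and 0.17 against matched cells. Gip had a value in 93.75% of defensin-high and 66.7% of other cells. Sst, Gip and Sct did not follow the score: they were at 220, 756 and 325 ppm in ranks 1 to 20 and at 639, 1696 and 348 ppm in ranks 21 to 400. The 17 listed hormone genes measured summed to 2589 to 3558 ppm in each 100 ranks of the 400 cells. The next 400 cells had 2855 ppm, the 800 after those 2805 ppm and the rest 1027 ppm. The higher hormone level was thus shared with the cells ranked just below the edge. In 53.0% of the 400 cells the hormone share exceeded the 90th percentile of other cells. That percentile was taken over all other cells together, not by set or number of detected genes. By the same measure the share was 19.0% for stem scoring, 11.5% for goblet scoring, 1.0% for cycling and 0.5% for enterocyte genes.

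Stem cell genes were at or above the level of other cells. The 8 stem scoring genes summed to 5795 ppm against 4290 ppm, higher in 6 of 6 sets, but none reached the size asked and the median was 0.27, or 0.17 against matched cells, where none passed. Set medians ran from -0.23 in set 5 to 0.42 in set 2. The sum was 4820 ppm in ranks 1 to 20 and 5157 ppm in ranks 1 to 100. Outside the edge it was 5847 ppm in the next 400 cells, 6187 ppm in the 800 after those and 3319 ppm in the rest. The higher sum was thus not particular to the 400 cells. Lgr5, the stem cell receptor whose locus carries the strain's reporter, was at 583 against 384 ppm (0.60), and Olfm4, a secreted crypt base protein, at 2682 against 1970 ppm (0.44). The stem scoring median turned to -0.05 when values were not rescaled to a common total, a setting that moved the median of all genes from -0.25 to -0.55. Cycling genes had a median of -0.65 over 20 genes, none past the rule, and -0.05 against matched cells.

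Enterocyte and proximal genes made up part of the lower genes. Of 18 enterocyte genes 2 were lower, Rbp2 (retinol binding, 599 against 1504 ppm, -1.33) and Fabp1 (fatty acid binding, 1354 against 3233 ppm, -1.26), and none against matched cells. Of 7 proximal genes that reached 10 ppm 5 were lower, with a median of -1.17, and only Gsta1 of these was lower against matched cells. The 10 genes with the lowest differences were Ms4a18, Ethe1, Gkn2, Gkn1, Gstm3, Clu, Rdh7, S100g, Car4 and Kcnk10, from -2.82 to -2.15. They were scarce in defensin-high cells, from 3.19 ppm (Ethe1) to 35.1 ppm (Gkn1). A value was present in 0.75% (Ms4a18) to 6.75% (Gkn1) of these cells, so the differences rest on few values. Of the 10 genes, Ethe1, Rdh7 and Car4 were also lower against matched cells. Gkn1, Gkn2 and Tff2, products of the stomach surface, were lower in level. A value was present in 6.75, 5.5 and 8.25% of defensin-high cells and in 3.75, 4.08 and 6.90% of other cells, and Tff2 stood at 0.06 against matched cells.

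Markers of other cell types were near 0. Marker lists of T cells, B and plasma cells, myeloid cells, stroma, endothelium, red blood cells and pancreatic acini (3 to 9 genes measured in each) had no gene at 10 ppm, and each list summed to at most 12.2 ppm in defensin-high cells and 13.6 ppm in other cells. Of the 9 T cell markers, 8 were at 0 in defensin-high cells.

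Position along the intestine was estimated from 8 distal and 8 proximal genes, not read from a segment barcode. In 24.25% of defensin-high cells the score was exactly 0, in 64.25% on the distal side and in 11.5% on the proximal side, against 19.96, 55.3 and 24.8% of other cells. These shares were not set against matched cells. The distal genes had a median log2 difference of 0.31 against set-weighted other cells, but -0.47 against matched cells. The proximal genes stood at -1.17 and -0.43, so the matched values give no distal lean of the distal genes. Defa24 was at 17661 ppm in the 257 distal-side cells and 24426 ppm in the 46 proximal-side cells. AY761184 was at 1286 and 4481 ppm, Lyz1 at 2092 and 2183 ppm, and Ang4, in the opposite direction, at 432 and 325 ppm. Few cells carried part of this. Without ranks 1 to 20, which left 243 and 44 cells, Defa24 was at 14284 and 16159 ppm, AY761184 at 1067 and 3549 ppm and Lyz1 at 1802 and 1949 ppm. Defa21, at 3208 and 3451 ppm over all of these cells, was then at 2138 and 1625 ppm. Among the 400 cells AY761184 reached 55747 ppm in 1 cell, against a cell median of 852 ppm. How much of the proximal-side AY761184 level rests on single cells was not tested. With 0 as the commonest single value and few detected genes, these are ranges of a score and not regions.

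Goblet-scored cells, of the neighbouring secretory lineage, served as a comparison class. In the 4 sets with at least 10 cells of each kind, 137 defensin-high cells were set against 127 goblet-scored cells. All goblet-scored cells outside the 400 had a median total of 4380 and a median of 1674 detected genes. The medians of the compared cells alone are not given here. Set 2, with 200 defensin-high and 0 goblet-scored cells, was not part of this comparison. Set 4, with 249 of the 400 goblet-scored cells, was not part of it either. Of 8728 genes 178 (2.04%) were higher and 705 (8.08%) lower in defensin-high cells. Of 16 other alpha-defensins that reached 10 ppm, 15 were higher, with a median of 2.93. Of 17 other products linked to Paneth cells that reached 10 ppm, 2 were higher and 3 lower, with a median of -0.70. Itln1 was among the 2 higher, at 1309 against 214 ppm (2.61). Of 8 goblet scoring genes 7 were lower, which the choice of the goblet-scored cells fixes. Of the folding genes 6 of 26 were lower and none higher, among them Pdia4 (-1.29), Hyou1 (-1.63) and Creld2 (-1.52), and of the transport genes 7 of 47 were lower and none higher. Of 16 Wnt targets, Notch genes and lineage factors that reached 10 ppm, 5 were lower, among them Atoh1 (-1.83), Spdef (-2.45) and Xbp1 (-1.01), and 2 were higher, Cd44 (1.07) and Axin2 (1.09), with a median of -0.28. Of the 8 stem scoring genes 5 were higher, with Lgr5 at 1.25 and Olfm4 at 1.51.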

How the data were processed

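Single-cell RNA of 8 pooled diet samples was analysed; the other 4 samples were not used here. The submitters' processing notes name Cell Ranger and mm10. Their versions, the filters and the step that made the values are stated in no source used here. Values in the authors' deposited table were treated as a score, a number of no fixed scale and not counts: they are whole numbers, but 2 was more frequent than 1 in 25.3% of cells and cell totals ran only from 2764 to 9739 (median 5503, with 2219 detected genes). Depth behind a value is therefore unknown. The table holds 20090 genes; no per-sample column was left unused. No doublet caller was run.

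Values were summed over cells and scaled to ppm. Differences are log2(ppm + 1), which understates changes of low genes. Named genes are the 8 of the score, genes of the Paneth lists past the size rule, the 25 highest and 10 lowest past it, and up to 4 of every other list; further genes are named as members of lists. The cells and the lists were chosen with earlier results of these data known. The contrast was checked on simulated counts with known differences. These were drawn at random around set means, so they lack the far-out single cells and the unknown scale of the real values. Tools were biopython 1.88, matplotlib 3.10.9, numpy 2.4.6, pandas 2.3.3, Python 3.11.15 and scipy 1.17.1. Alternatives covered weighting, pseudocount, level filter, scaling, number of cells, cell filter, matched cells, other scores and leaving out each barcode set.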

Additional observations from a re-analysis of the deposited data

Results flagged for a closer look

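Of 39 values examined over the barcode sets, 4 had a set standing far from the nearest of the others, and chance gives this for about 1 in 20. Defensin-high cells were 4.36% of barcode set 2, and the next set had 1.37%. The median log2 difference of the goblet scoring genes was 3.69 in set 8, with 1.97 in the next set. The median of the hormone genes was lowest in set 7 at 0.77, with 1.16 in the next. The median of 14 further stem cell genes was lowest in set 1 at -0.50, with -0.06 in the next.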

How the results depend on the processing

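The number of higher genes (40) stayed between 28 and 49 in every alternative but matched other cells, which gave 18. The number of lower genes (228) depended on the processing: 60 at a pseudocount of 10 ppm, 33 at a level of at least 50 ppm, 1011 with no level filter, 812 without rescaling, 448 with 200 cells, 447 with a stricter cell filter, 22 with matched cells, 408 with a score of alpha-defensins only and, chosen after seeing the data, 441 with a score from the summed share and 582 in cells where 1 was at least as frequent as 2. Leaving out 1 barcode set gave 238 to 452, the highest without set 2. Fewer sets are then left for the direction rule, except without sets 4 and 6, which that rule does not count. Against goblet-scored cells the counts higher and lower (178 and 705) became 111 and 421 at a pseudocount of 10 ppm. They were 716 and 1574 with 200 cells each, and 71 and 164 at 50 ppm. Leaving out 1 of the 4 sets in this comparison gave 222 to 466 and 784 to 1268, both highest without set 7. The higher count was 332 without set 1 and 284 without set 3. The direction then had to be the same in fewer sets. The remaining sets do not enter this comparison, so leaving them out cannot change it. The share of the 400 cells in set 2 was 34.5% with no alpha-defensin in the score, 14.75% with set-centred scores and 37.0% with the summed share. Of the 400 cells, 266 were kept when each set gave the same share, 208 with no alpha-defensin in the score, 212 with alpha-defensins only, 219 with set-centred scores and 200 with the summed share. The log2 difference of Tff2 turned to 0.058 with matched cells; the cause was not tested. The alpha-defensin median stayed at 1.38 to 2.90, the goblet scoring median at 0.87 to 2.25 and that of other Paneth products at 0.40 to 1.03. No paired analysis was possible because the barcode sets cannot be tied to the replicate numbers of the samples and the results come from no test; the differences within each barcode set are part of the rule for higher and lower genes.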
